A study of Rattus norvegicus with 12 samples.

Results

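Endothelial cells line the blood channels of the liver, and the transcripts that mark them were followed here in whole-liver RNA. The members were 10 marker genes given by name. They were 5 of liver sinusoidal endothelium (Flt4, Fcgr2b, Stab1, Stab2 and Lyve1) and 5 of endothelium in general (Kdr, Pecam1, Cdh5, Tek and Eng). Of these 10, 6 matched a row among the 16478 gene rows of the count files and all 6 passed the filter on low counts: 3 sinusoidal markers (Flt4, Fcgr2b and Lyve1) and 3 general ones (Cdh5, Tek and Pecam1). Stab1, Stab2, Kdr and Eng matched no row and were not analysed here.

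The animals were obese rats of the strain ZSF1, 6 females (numbered 7, 8, 9, 10, 12 and 13) and 6 males (numbered 1 to 6), all adult, 16 weeks old and untreated. One liver RNA library was sequenced per animal. As background, ZSF1 is a cross of rat strains that carry leptin receptor mutations, and its obese animals inherit a defective receptor from both parents, so that every animal compared here shares that defect and no lean animal was among them. The question was which liver transcripts stand at other levels in females than in males.

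Sinusoidal endothelial cells differ from the lining of other vessels. They are perforated by pores, lack a continuous basement membrane, and take up hyaluronan, immune complexes and other waste from blood through scavenger receptors. Flt4 encodes a receptor for the vascular endothelial growth factors C and D. Fcgr2b encodes an inhibitory receptor for immunoglobulin G that takes up small immune complexes in the sinusoid, and is also made by B cells and macrophages. Lyve1 encodes a hyaluronan receptor of sinusoidal and lymphatic endothelium. Cdh5 encodes VE-cadherin, the adhesion protein of endothelial junctions, and Tek encodes Tie2, the angiopoietin receptor. Pecam1 encodes CD31, an adhesion protein of endothelial junctions that platelets and leukocytes also carry.

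Promoter sequence was at hand for 2 of the 6 markers, Flt4 and Lyve1, and is shown because both differed between the sexes. The windows are RefSeq sequence of build GRCr8, which is not the build named for the counts (rn4). Each runs from 250 bases before the gene's start to 50 bases after it, 5′ to 3′ on the gene's strand. Capitals mark matches to AGGAAG on either strand, a 6-letter form that includes the shorter core bound by ETS factors. As background, that family includes regulators of many endothelial genes. The shorter core was not searched for by itself, and its other occurrences are not marked.
Flt4, chr10:34414584-34414883, plus strand: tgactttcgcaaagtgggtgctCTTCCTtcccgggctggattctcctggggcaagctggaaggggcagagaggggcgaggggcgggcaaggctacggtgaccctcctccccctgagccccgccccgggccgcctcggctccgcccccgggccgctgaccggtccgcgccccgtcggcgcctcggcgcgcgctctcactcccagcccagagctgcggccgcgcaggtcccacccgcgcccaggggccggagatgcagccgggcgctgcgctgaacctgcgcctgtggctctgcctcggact
Lyve1, chr1:174410928-174411227, minus strand: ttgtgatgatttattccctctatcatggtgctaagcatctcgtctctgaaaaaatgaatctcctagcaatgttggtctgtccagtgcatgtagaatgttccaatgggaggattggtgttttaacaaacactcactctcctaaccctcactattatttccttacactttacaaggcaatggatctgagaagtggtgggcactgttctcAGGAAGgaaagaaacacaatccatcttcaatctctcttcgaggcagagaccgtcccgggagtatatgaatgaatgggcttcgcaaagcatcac
Each window held 1 match to AGGAAG, at position -228 for Flt4 (minus strand) and at position -43 for Lyve1 (plus strand), counted from the gene's start. The same 6 letters stood in 34.5% of the 33469 promoter windows of the table, so a match is common. Neither window held AGATAA (11.6% of windows), TTCNNNGAA (8.87%) or the full palindromic estrogen response element (0.0269%), searched on both strands. The windows differed in composition, with 75% G and C in Flt4 and 43.3% in Lyve1, against a median of 51.7% over all windows.

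Reads counted over genes numbered 6763879 to 24837602 per female library and 11381428 to 29232871 per male library (exact permutation p = 0.597, 2-sided). In a principal component analysis of log2 CPM (counts per 1e+06 counts over genes, scaled by TMM factors), females and males separated along the first component (63.4% of the variance) and male 4 stood apart along the second (11.4%). The hepatocyte transcript Alb took 17.8% to 23.1% of counts in females and 11.5% to 17.8% in males (exact permutation p = 0.00216). The threshold was an adjusted p of 0.05, and 43.2% of the 9943 genes tested passed it. Those that passed with the higher level in females made up 20.5% of all genes tested, and those with the higher level in males 22.7%. The counts called in each list below are to be read beside these shares. The median log2 fold change, females over males, was -0.0126 over all of them.

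Of the 6 markers, 5 were higher in female livers and 0 in male livers: the sinusoidal markers Flt4, Fcgr2b and Lyve1 and the general markers Cdh5 and Tek. The differences lay between 1.56-fold and 2.74-fold. The 5 of 6 stand beside the 20.5% of all tested genes that were higher in females. Pecam1 did not pass the test. In whole-liver RNA, fewer endothelial cells and less of a transcript per cell cannot be told apart. The plot of CPM by library shows each animal.

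**Figure D1:**
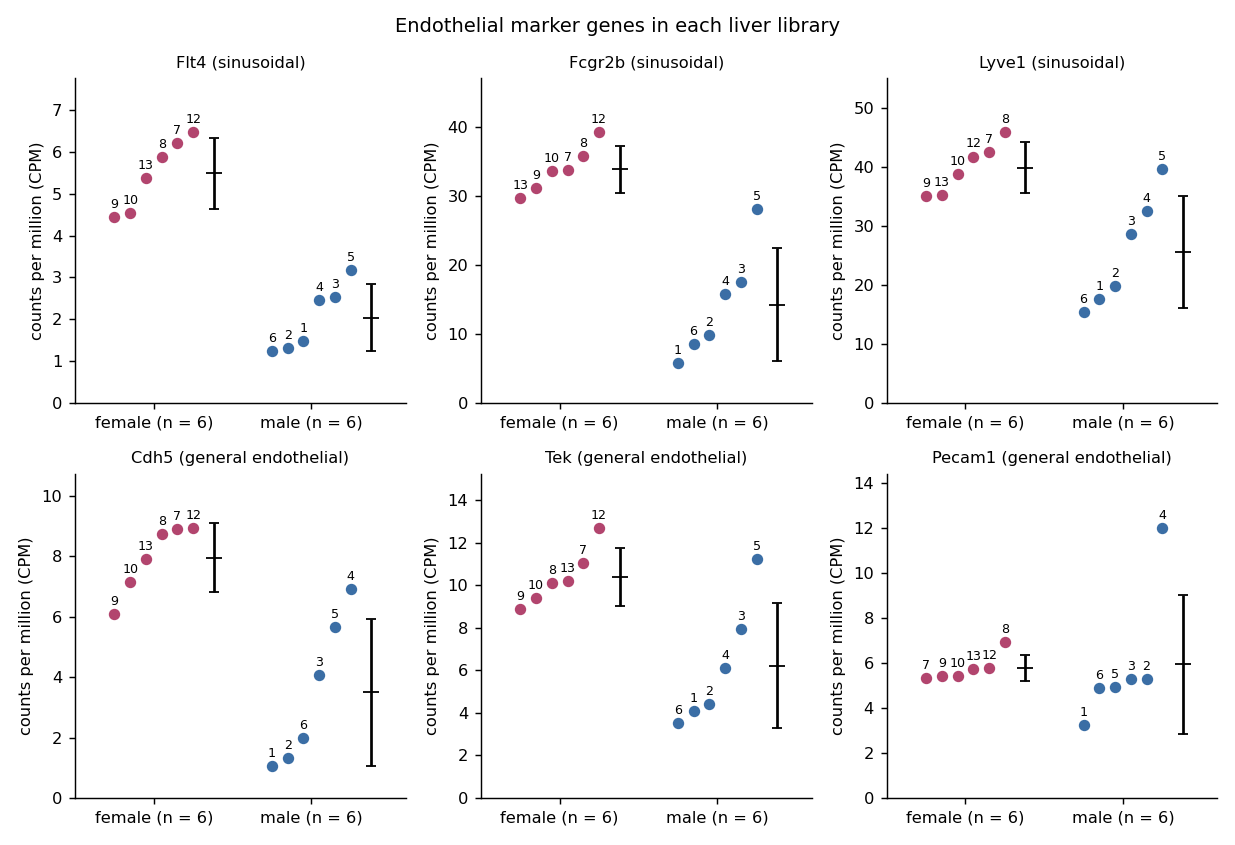
CPM of the 6 marker genes in each library, females left and males right, with animal numbers above the points and the mean ± SD of 6 animals beside them. Flt4 and Fcgr2b do not overlap between the sexes, Cdh5, Tek and Lyve1 overlap in part, and male 4 stands alone in Pecam1.

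Flt4 showed the widest difference of the 6 genes. It stood at 4.43, 5.63 and 6.47 CPM (lowest, median and highest) in females, against 1.23, 1.98 and 3.19 CPM in males. Every female was above every male. The fitted difference was 2.74-fold (log2 1.45, SE 0.22, 95% interval 1.97-fold to 3.80-fold, adjusted p = 0.000122). Flt4 rested on 32 to 127 reads per female library and 17 to 45 per male library, so counting error alone gave an SD of about 0.173 log2 units in females and 0.262 in males.

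Fcgr2b stood at 29.7, 33.7 and 39.3 CPM in females, against 5.77, 12.8 and 28.2 CPM in males. The groups did not overlap, although male 5 lay just under the lowest female. The difference was 2.39-fold (log2 1.26, SE 0.30, 95% interval 1.51-fold to 3.76-fold, adjusted p = 0.00534). Over all genes tested, 10.1% had every female above every male, as 2 of the 6 markers did. B cell markers were scarce: 6 of 7 B cell genes had a row, and 4 of them failed the filter on low counts. Pax5 (listed as RGD1565236) was at 0 in every male and at no more than 0.0988 CPM in any female. The summed level of the 6 genes ran from 4.06 to 4.89 CPM in females and from 2.03 to 7.41 CPM in males. The part of B cells in the Fcgr2b difference was not tested.

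Lyve1 stood at 35.1, 40.3 and 45.9 CPM in females, against 15.3, 24.2 and 39.7 CPM in males. Male 5 lay above females 9, 13 and 10, and the other males lay below all females. The difference was 1.56-fold (log2 0.65, SE 0.21, 95% interval 1.15-fold to 2.14-fold, adjusted p = 0.0236). The call was marginal, and was lost without female 8 (adjusted p = 0.0501) or male 2 (adjusted p = 0.0506).

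Among the general markers, Cdh5 stood at 6.10, 8.32 and 8.95 CPM in females, against 1.05, 3.03 and 6.91 CPM in males. Male 4, the highest male, lay above female 9 and below the other females. The difference was 2.28-fold (log2 1.19, SE 0.38, 95% interval 0.38 to 2.01 on the log2 scale, adjusted p = 0.0214). Cdh5 rested on as few as 12 reads in male 1 and 24 in male 2, against 44 to 187 in the female libraries.

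Tek stood at 8.87, 10.2 and 12.7 CPM in females, against 3.50, 5.26 and 11.2 CPM in males. Only male 5 reached the female range. The difference was 1.69-fold (log2 0.76, SE 0.24, 95% interval 1.18-fold to 2.43-fold, adjusted p = 0.0207). With male 4 and female 12 both left out the fold was 1.65 but the call was lost (adjusted p = 0.068).

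Pecam1 stood at 5.33, 5.59 and 6.91 CPM in females, against 3.23, 5.11 and 12.0 CPM in males. No male lay inside the female range: male 4 was above every female, and the other 5 males were below every female. Males 2 and 3 lay just under the lowest female, at 5.30 and 5.29 CPM against 5.33 CPM. Counting error alone gave an SD of about 0.162 log2 units in males, so gaps this small do not separate animals. The fitted ratio was 0.967-fold (log2 -0.05, SE 0.24, 95% interval 0.672-fold to 1.39-fold, adjusted p = 0.891). Without male 4 the ratio was 1.22-fold (adjusted p = 0.0713). That library also held the highest summed level of the leukocyte lists. T and NK cell markers summed to 21.9 CPM in male 4, neutrophil markers to 27.9 CPM and macrophage markers to 634 CPM. In the other 5 males these sums ran from 4.34 to 5.60, from 2.38 to 3.67 and from 208 to 324 CPM. Their part in the Pecam1 value was not tested.

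Differences of unlike size stood in both classes of marker. The median log2 fold change was 1.26 for the 3 sinusoidal markers and 0.76 for the 3 general ones, yet Cdh5 differed by more than Lyve1, and no test of the one group against the other was made. The summed CPM of the 3 sinusoidal markers over that of the 3 general ones was 2.95 to 3.51 in females and 2.03 to 3.26 in males. These ranges overlapped, and the lowest ratio was that of male 4. With each gene given equal weight, the mean log2 CPM of the sinusoidal markers minus that of the general ones was 1.20 to 1.36 in females and 0.44 to 1.17 in males, with no overlap. With Pecam1 left out of the general markers it was 0.99 to 1.20 in females and 0.74 to 1.40 in males, which overlapped. Set against Pecam1 within the same library, which needs no scaling between libraries, Flt4 was 0.821 to 1.17 times Pecam1 in CPM in females and 0.205 to 0.647 times in males, with no overlap. Lyve1 was 6.14 to 7.98 times Pecam1 in females and 2.71 to 8.06 times in males, where male 5 was the highest of all 12. Fcgr2b was 5.16 to 6.78 times Pecam1 in females and 1.31 to 5.72 times in males. The general markers also reached lower ratios in males. Cdh5 was 1.13 to 1.67 times Pecam1 in females and 0.247 to 1.15 times in males. Tek was 1.465 to 2.195 times Pecam1 in females and 0.507 to 2.28 times in males. Only the Flt4 ratio did not overlap between the sexes. These ratios of counts are not corrected for transcript length.

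Female livers varied less in these genes than male livers. The male SD was the larger for all 6 markers, as it was for 60.1% of all genes tested. The SD of log2 CPM among females lay between 0.137 and 0.226 for the 6 markers, close to the median of 0.162 over all genes tested. Among males it lay between 0.54 and 1.08, against a median of 0.186 over all genes. Cdh5 varied 6.60-fold from the lowest to the highest male and 1.47-fold among females, and Fcgr2b 4.89-fold among males and 1.32-fold among females.

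The difference in spread was tested on absolute deviations from the median of the own sex, with an exact permutation test over all 924 assignments of the libraries, a test chosen after the values were seen. The 2-sided p was 0.00216, the smallest that this design allows, for Flt4, Fcgr2b, Lyve1 and Cdh5, 0.00866 for Tek and 0.227 for Pecam1. None passed adjustment over all 9943 genes (adjusted p = 0.283 for the first 4, 0.582 for Tek and 1 for Pecam1). With p bounded at 0.00216, a gene could pass only if many other genes reached that bound too. The adjusted values therefore cannot decide whether the spread of these markers differed. Over all genes 0 passed, while 357 (3.59%) were wider in males and 146 (1.47%) wider in females at an unadjusted p under 0.05.

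**Figure D2:**
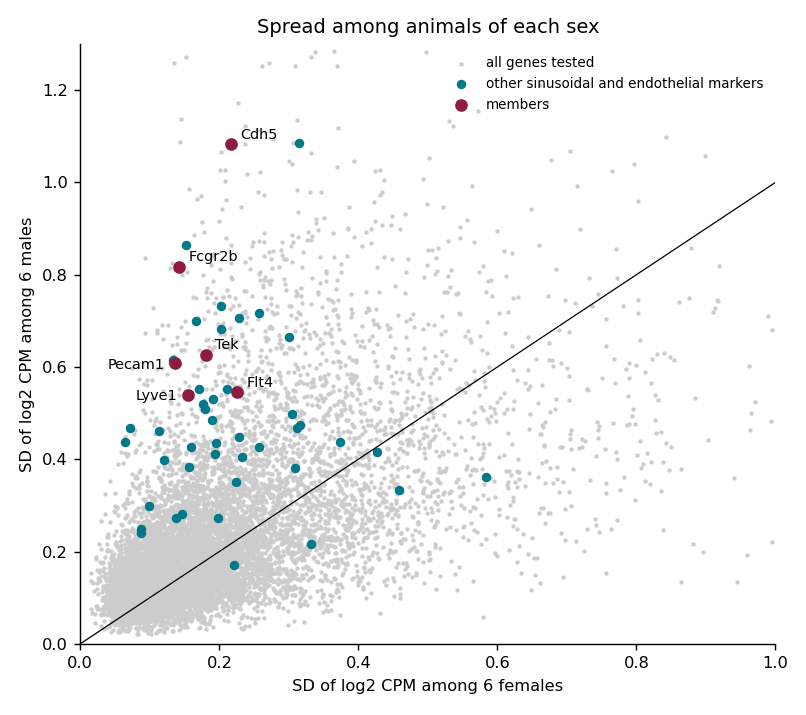
Standard deviation of log2 CPM among the 6 females (x axis) and the 6 males (y axis) for every gene tested (grey), for other sinusoidal and endothelial markers (teal) and for the 6 members (red), with the line of equal spread. The members lie between 0.54 and 1.08 on the male axis and 0.137 and 0.226 on the female axis, and 45 genes lie beyond the axes.

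The males kept much the same order from gene to gene. Males 1, 2 and 6 were the lowest 3 males for Flt4, Fcgr2b, Lyve1, Cdh5 and Tek, and male 5 was the highest for 4 of these. Over all genes tested, the same 3 males were the lowest in 5.82%. Among other sinusoidal markers they were the lowest in 10 of 16, and among other endothelial markers in 11 of 27. The order was noticed in these values, so the counts describe it and do not test it. Male 6 was the deepest of the 12 libraries and male 1 the shallowest male library.

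**Figure D3:**
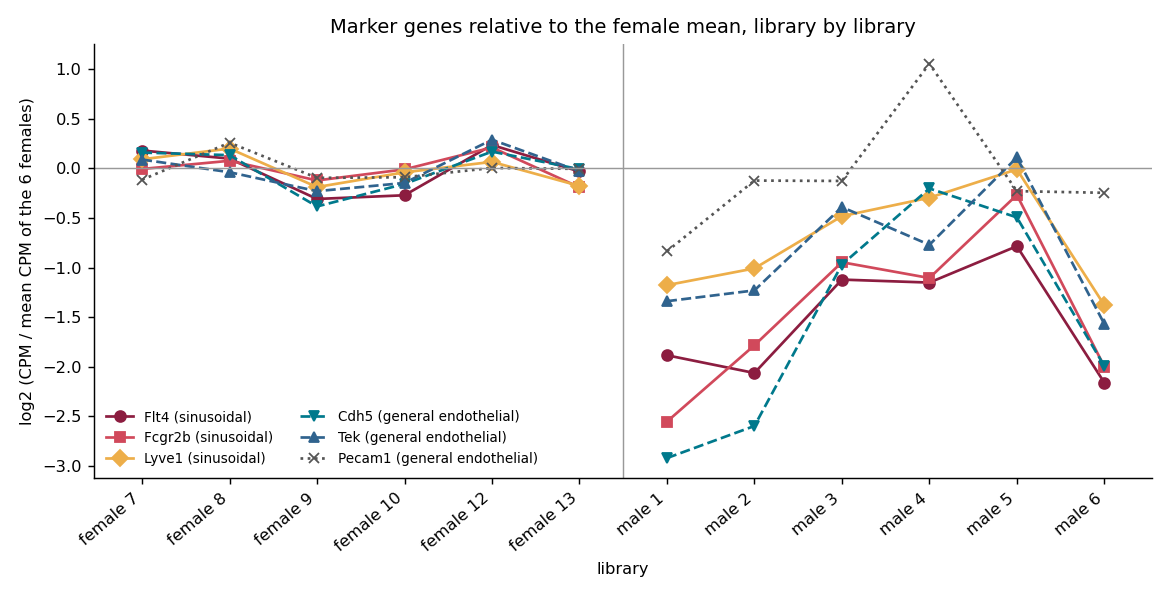
Log2 ratio of CPM to the mean of the 6 females for each marker (y axis) in each library (x axis); the lines only join the points of one gene. Females stay near 0, while in males Flt4, Fcgr2b, Lyve1, Cdh5 and Tek dip together in males 1, 2 and 6, and Pecam1 follows another course.

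The genes whose profile over the 12 libraries lay nearest to each of the 5 differing markers were sought among genes with at least 5 CPM on average. Nearness was the root mean square (RMS) difference of log2 CPM, each gene centred on its own mean. Nearest to Flt4 were Ehd3, an endocytic recycling gene (RMS 0.166), the mannose receptor gene Mrc1 (0.194) and Tmem30b, a flippase subunit gene (0.203). Nearest to Fcgr2b were the adhesion receptor gene Gpr116, now named Adgrf5 (0.251), Mrc1 (0.284) and Tmem30b (0.287). For Lyve1 they were Clec14a, an endothelial lectin-like gene (0.139), the secreted nuclease gene Dnase1l3 (0.143) and the receptor gene Gpr182 (0.158). For Cdh5 they were the scavenger receptor gene Msr1 (0.31), Mrc1 (0.32) and Cd93 (0.338), and for Tek they were Lyve1 (0.187), the caveola-associated gene Sdpr (0.221) and Dnase1l3 (0.241). Likeness was measured over both sexes, so a gene near such a marker has much the same sex difference by selection. The folds ran from 1.56-fold for Lyve1 and Clec14a to 2.91-fold for Tmem30b (16.5 ± 1.14 CPM in females and 5.69 ± 1.71 CPM in males, SD, n = 6 each).

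Other sinusoidal markers leaned the same way. Of 20 listed, 16 were tested, 9 were higher in females and in 1, the leukocyte adhesion gene Icam1, males were above females (median log2 fold change 0.74). Without male 4 the 9 were 14, and the genes higher in females over all genes tested rose from 2037 to 2389. Maf, a transcription factor gene, differed most, at 8.34 ± 1.67 CPM in females and 3.09 ± 1.47 CPM in males (2.73-fold, adjusted p = 0.000437, no overlap). Ehd3 was 2.59-fold (36.2 ± 5.72 CPM in females and 14.1 ± 4.93 CPM in males, adjusted p = 7.64e-05), Mrc1 2.34-fold and the endocytic adaptor gene Dab2 2.11-fold higher, with no overlap in any of these 3. F8, the coagulation factor VIII gene that sinusoidal endothelium makes, was higher by 0.58 on the log2 scale with no overlap (9.95 ± 1.53 CPM in females and 6.66 ± 0.793 CPM in males, adjusted p = 0.000875). Gata4, a transcription factor gene that hepatocytes also express, and Plvap, which forms the diaphragms of endothelial pores, did not pass (adjusted p = 0.251 and 0.829). Plvap varied widely among males, at 2.91 to 10.7 CPM (4.29 ± 3.14 CPM), against 3.33 to 4.61 CPM in females (3.96 ± 0.572 CPM). Its result therefore does not show equal levels in the sexes. Icam1 stood at 44.7 ± 8.62 CPM in females and 71.7 ± 11.4 CPM in males. Several genes of this list, Mrc1 and Maf among them, are also expressed by macrophages.

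Of 31 other endothelial markers, 27 were tested, with 15 higher in females and 0 in males (median log2 fold change 0.53). Without male 4 the 15 were 20, beside the rise from 2037 to 2389 over all genes tested. Cd93, a lectin-like receptor gene, was 2.66-fold higher (7.76 to 12.6 CPM in females and 2.10 to 7.02 CPM in males, adjusted p = 0.000813) and the guidance receptor gene Robo4 2.58-fold higher, both with no overlap. Myct1 was 2.18-fold and the sialomucin gene Emcn 2.16-fold higher. The transcription factor genes Erg, Fli1 and Ets1 of the ETS family were 1.63-fold, 1.77-fold and 1.45-fold higher. Tie1, the partner receptor of Tie2, was 1.46-fold higher. Others did not pass: Egfl7 stood at 7.08 ± 0.448 CPM in females and 6.62 ± 1.09 CPM in males (adjusted p = 0.479), and S1pr1, a sphingosine phosphate receptor gene, at 148 ± 14.3 CPM in females and 128 ± 24.2 CPM in males (adjusted p = 0.143).

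Genes more typical of continuous endothelium, the lining of other vessels, went both ways. Of 12 listed, 5 were tested, with 2 higher in females and 1 in males. The caveola gene Cav1 was 1.59-fold and the thrombomodulin gene Thbd 1.48-fold higher in females, but the 2 became 0 to 4 when libraries were left out in turn, changing by over 1.5 times without female 7, 8, 10 or 13 or male 1, 2, 4 or 6. The P-selectin gene Selp, whose protein platelets also carry, stood at 4.88 ± 0.730 CPM in females and 8.96 ± 1.26 CPM in males, with no overlap (1.83-fold higher in males, adjusted p = 5.98e-05). Cd34 was below the filter, at 0.377 ± 0.245 CPM in females and 0.425 ± 0.223 CPM in males.

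**Figure D4:**
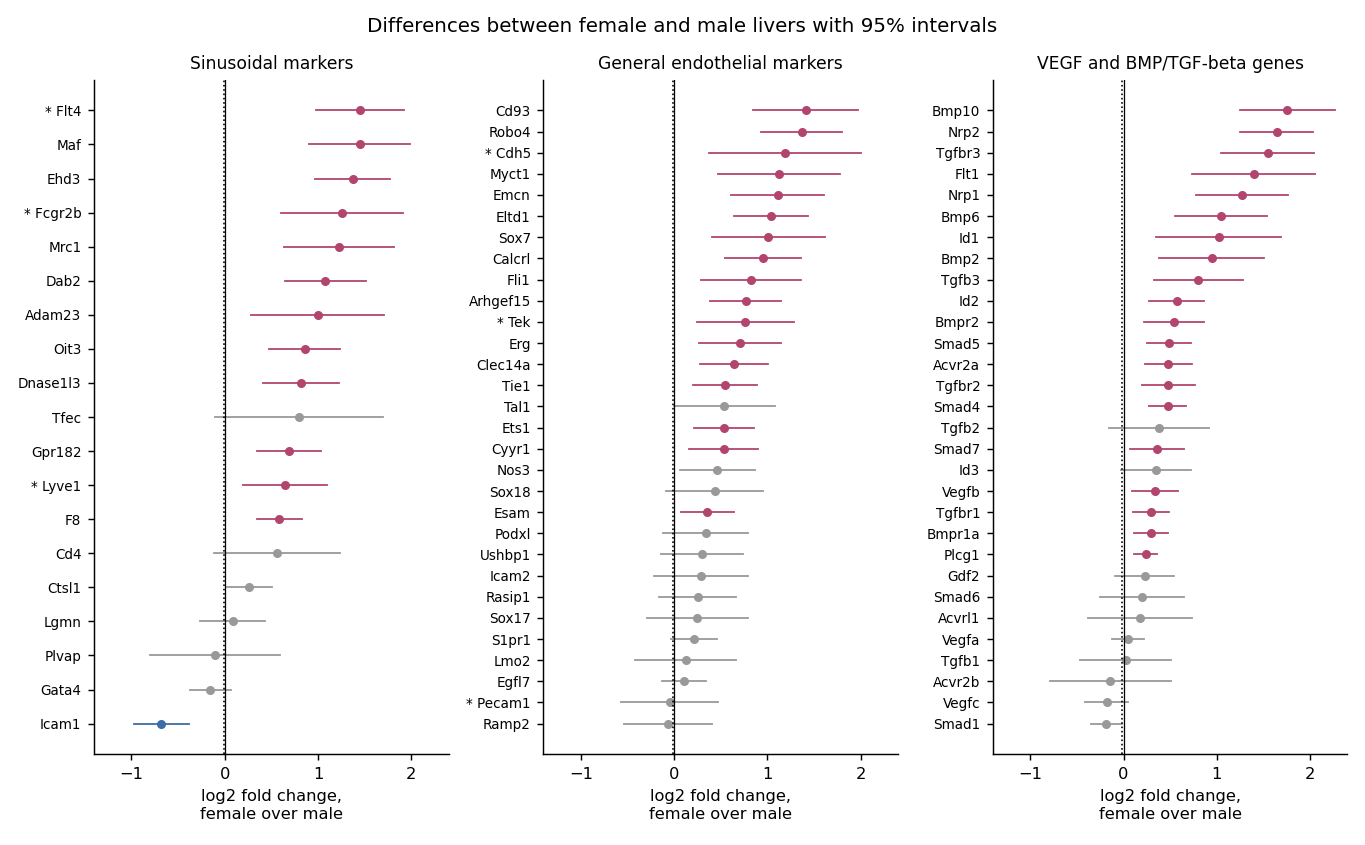
Log2 fold change, female over male, with 95% intervals for sinusoidal markers, general endothelial markers and genes of the VEGF and BMP/TGF-beta pathways. Red marks genes higher in females, blue genes higher in males and grey genes that did not pass the test; asterisks mark the members and the dotted line is the median of all genes tested (-0.0126).

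Around Flt4, genes of the vascular endothelial growth factor (VEGF) pathway that passed the test were all higher in females. Of 9 genes listed, 7 were tested, with 5 higher in females and 0 in males. Nrp2, the co-receptor for VEGF-C beside Flt4, stood at 20.7 ± 3.58 CPM in females and 6.67 ± 1.91 CPM in males, with no overlap (3.12-fold, adjusted p = 1.05e-05). Flt1, the first VEGF receptor, was 2.63-fold (6.96 ± 0.696 CPM in females and 2.69 ± 1.80 CPM in males, adjusted p = 0.00244) and Nrp1 2.41-fold higher. Plcg1, a phospholipase gene of the signal downstream, was 1.18-fold higher. Of 5 ligands 3 were tested, and of these Vegfb was 1.26-fold higher in females. Vegfa stood at 268 ± 23.1 CPM in females and 259 ± 27.0 CPM in males (adjusted p = 0.684), and Vegfc, a ligand of Flt4, at 5.29 ± 0.548 CPM in females and 6.03 ± 0.684 CPM in males (adjusted p = 0.188). Vegfd, listed as Figf, and Pgf were below the filter. No test set receptors against ligands.

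Around Tek, the angiopoietin ligands had few counts. Of 5 genes listed 1 was tested, Angpt1, an activating ligand, at 1.72 ± 0.486 CPM in females and 1.40 ± 0.547 CPM in males (1.27-fold, adjusted p = 0.335). Angpt2, whose product can oppose it, was below the filter, at 0.388 ± 0.243 CPM in females and 0.147 ± 0.0668 CPM in males. With no filter on low counts 1 gene of the list was called higher in females.

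The pathway of Eng, a co-receptor for bone morphogenetic proteins (BMP) and TGF-beta, could be followed through its other genes. Of 25 listed, 23 were tested, with 15 higher in females and 0 in males (median log2 fold change 0.47). Without male 4 the 15 were 18, beside the rise from 2037 to 2389 over all genes tested. Bmp10, a circulating ligand of endothelial BMP receptors, was 3.38-fold higher (2.21 ± 0.500 CPM in females and 0.663 ± 0.233 CPM in males, adjusted p = 4.49e-05) with no overlap. Tgfbr3, the co-receptor betaglycan, was 2.92-fold and Bmp6, which sinusoidal endothelium makes, 2.07-fold higher, both with no overlap. Id1, a target of BMP signalling, was 2.03-fold higher. Gdf2, which encodes BMP9, stood at 26.2 ± 4.98 CPM in females and 22.5 ± 4.87 CPM in males (adjusted p = 0.233), and its endothelial receptor gene Acvrl1 at 2.19 ± 0.475 CPM in females and 1.95 ± 0.963 CPM in males (adjusted p = 0.623).

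Few genes of hyaluronan turnover or of other scavenger receptor ligands passed. Of 12 listed, 8 were tested, with 0 higher in females and 1 in males in the main fit. That one was Hyal1, a lysosomal hyaluronidase gene, at 19.6 ± 5.09 CPM in females and 32.5 ± 4.70 CPM in males, with no overlap (1.66-fold higher in males, adjusted p = 0.00296). The hyaluronan synthase genes Has1, Has2 and Has3 were all below the filter. Tgfbi, which encodes a matrix protein, stood at 198 ± 9.38 CPM in females and 203 ± 24.9 CPM in males (adjusted p = 0.700). Leaving out female 9, female 10 or male 4 brought 1 to 3 of the list higher in females. So did scaling by library totals, DESeq2 (1 gene), and leaving out male 4 and female 12 together.

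Genes of Notch, Wnt and growth factor signalling, ligands and receptors among them, went both ways. Of 15 Notch, Wnt and growth factor genes listed, 11 were tested, with 4 higher in females and 2 in males. The hepatocyte growth factor gene Hgf, which stellate cells also make, was 2.31-fold higher in females (7.25 ± 2.17 CPM in females and 3.20 ± 0.901 CPM in males, adjusted p = 0.000466), the Notch ligand gene Dll4 1.73-fold and the receptor gene Notch2 1.54-fold. Wnt9b, a Wnt ligand of central vein endothelium, was 1.68-fold higher in males (0.665 ± 0.198 CPM in females and 1.14 ± 0.369 CPM in males, adjusted p = 0.0334). The 2 higher in males were 0 to 3 when libraries were left out in turn, and fell to 1 or 0 without female 7, 10, 12 or 13 or male 1, 4, 5 or 6. Of 12 Wnt targets and other genes of the hepatocytes around the central vein, 7 were tested, with 3 higher in females and 1 in males (6 in females without male 6). Oat was 5.94-fold, Axin2 1.61-fold and Slc1a2 1.55-fold higher in females, and Rhbg was 2.38-fold higher in males.

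The lymphatic list, which does not include the members, held 3 tested genes of 5. Prox1, which hepatocytes also express, was 1.52-fold and Reln, which stellate cells also express, 1.53-fold higher in females. Ccl21b was 3.35-fold higher in males (2.01 ± 0.429 CPM in females and 6.57 ± 7.21 CPM in males, adjusted p = 0.0222), a call lost without female 13 and with limma-voom, and male 4 held 21.2 CPM of it. Pdpn, which separates lymphatic from blood endothelium, was below the filter at 0.233 ± 0.205 CPM in females and 0.0974 ± 0.0468 CPM in males.

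Markers of the other cells of the sinusoid were measured beside these. Of 15 macrophage markers, 14 were tested, 3 were higher in females (Msr1 2.26-fold, Cd163 1.81-fold and Clec4f 1.69-fold) and 1, Cd14, was 1.12-fold higher in males, a call lost in 10 of the 12 fits that left out 1 library and in every other alternative except limma-voom. The 3 of 14 stand beside the 20.5% of all tested genes that were higher in females. Without male 4 the 3 were 11, and the count over all genes rose from 2037 to 2389. Their summed level ran from 304 to 436 CPM in females and from 208 to 634 CPM in males, and in males other than male 4 it ended at 324 CPM. The part of these markers in the differences of Fcgr2b and Mrc1, which macrophages also express, was not tested. Of 15 stellate cell markers, 11 were tested, 2 were higher in females (Col1a2 1.48-fold and Pdgfra 1.39-fold) and 2 in males (Dcn 1.96-fold and Rgs5 1.72-fold). With libraries left out in turn the first count became 1 to 4 and the second 1 to 2. Their summed level ran from 269 to 369 CPM in females and from 241 to 400 CPM in males.

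Of 9 hepatocyte markers tested, 4 were higher in males and 1, Alb, in females (a call lost without female 10, 12 or 13 or male 1, 2 or 3). The 4 were 2 without female 7 or female 8, and also without the 20 most abundant genes. The markers had summed levels of 239700 to 317900 CPM in females and 205700 to 263700 CPM in males. The markers with the most counts among B cells, T and NK cells, platelets and bile ducts did not pass: Cd22 (2.64 ± 0.352 CPM in females and 1.98 ± 1.16 CPM in males, adjusted p = 0.267), Prf1 (2.09 ± 0.498 CPM in females and 2.92 ± 2.75 CPM in males, 0.422), Pf4 (0.884 ± 0.264 CPM in females and 0.913 ± 0.456 CPM in males, 0.904) and Epcam (5.30 ± 1.67 CPM in females and 5.81 ± 2.05 CPM in males, 0.744). The red cell genes Hbb and Hba-a2 were 1.74-fold and 1.71-fold higher in males (192 ± 66.4 CPM in females and 336 ± 133 CPM in males for Hbb), both calls lost without female 9, female 12 or male 4 and 1 of them without female 7, 8 or 13 or male 2, and male 2 held 594 CPM of Hbb. S100a9 of neutrophils differed 6.15-fold in favour of males (adjusted p = 0.0261 with edgeR, not called with DESeq2 or limma-voom, or without female 8 or 13). There male 4 held 14.1 CPM and the other males 0.980 to 1.75 CPM. The plot of summed marker lists sets these beside the members.

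**Figure D5:**
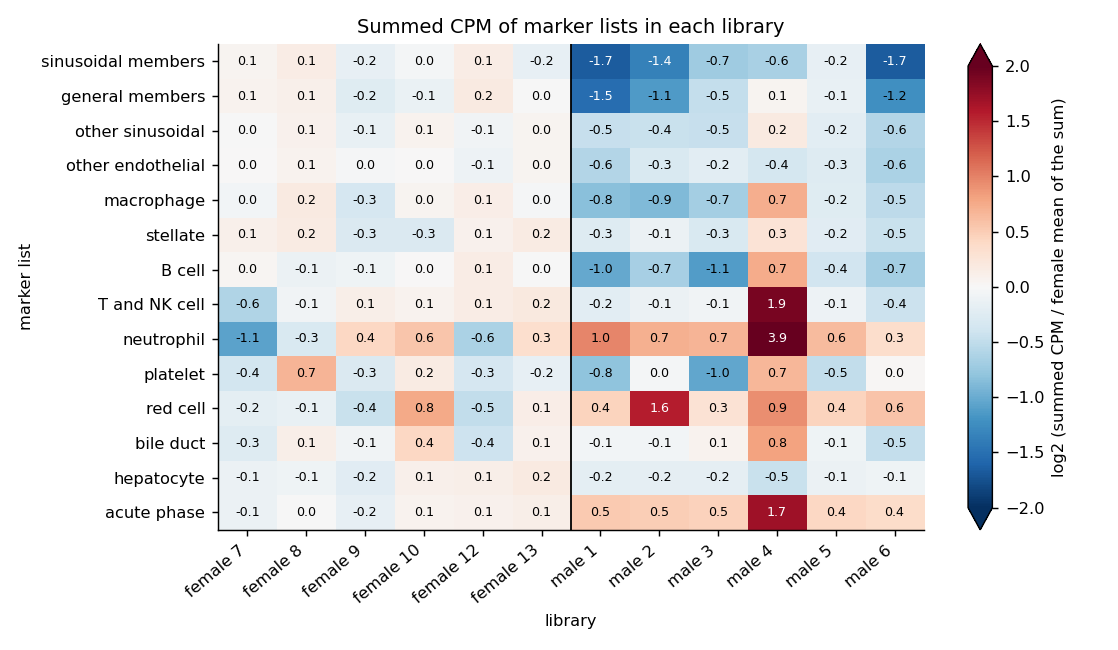
Log2 ratio of each marker list's summed CPM to its female mean, one column per library, with the value printed in each cell. The sinusoidal and general members are lowest in males 1, 2 and 6, and leukocyte, bile duct and acute phase lists are highest in male 4.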

How the data were processed

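One liver RNA library per rat was analysed, from 6 females and 6 males of the obese ZSF1 strain. The authors deposited raw counts of reads, as whole numbers, for 16478 gene symbols in each library. Bowtie2 version 2.0.2, DESeq and build rn4 are named, per the submitters' processing notes. Which program counted the reads, with which annotation and strand rule, is not given in the sources used here. Reads of antisense transcripts may therefore be counted for a gene. A further 5 rows that name no gene held 27.1% to 31.7% of counts and were left out. Among them were rows for ambiguous reads and for alignments that were not unique, so such reads were tallied apart from the genes. Genes that overlap may have lost reads in this way.

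Sex was tested on the counts by edgeR 4.0.16 (R 4.3.3; filterByExpr with minimum count 10 and minimum total 15, TMM factors, robust quasi-likelihood F test), with Benjamini-Hochberg adjustment over the 9943 genes tested and a threshold of 0.05. Log2 fold changes are females over males, with the SE taken from the log2 fold change and its F statistic. The p-values of this test set the mean difference between the sexes against the spread between these animals. The fit takes the variability of a gene to be the same in both sexes. CPM values use the TMM factors and are given as mean ± SD (n = 6). Intervals of fold changes are 95% intervals from the same fit. SDs of log2 CPM use a prior count of 2. At these depths 3 counts correspond to 0.105 to 0.416 CPM. All 30 pairs of libraries within a sex differed by more than counting error (lowest chi-square over its degrees of freedom 6.02). The labels give no batch or litter. The male numbers (1 to 6) all precede the female ones (7 to 13), and a batch that followed the numbering cannot be told apart from sex.

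The members and gene lists were chosen with earlier results of these data known. Genes named were the members, in each list up to 4 genes past the threshold, taken by size of fold change, the most abundant of the others where fewer than 2 differed, and the 3 nearest profiles of each member that differed by at least 1.5-fold. Others named, among them F8, Gata4, Plvap, Icam1, Erg, Fli1, Ets1, Tie1, Egfl7, S1pr1, Cd34, Vegfa, Vegfc, Angpt2, Gdf2, Acvrl1, Pdpn and Alb, were chosen after their values were seen. For names only, symbols were matched to RefSeq genes of GRCr8, which held 96.7% of the 16478. The test of spread, the count of male order and the ratios to Pecam1 were also chosen after the values were seen. A simulation with known changes checked the fit. It recovered 39 of 67 genes changed 1.5-fold and 66 of 67 changed 2-fold, and 8 of its 179 calls were false. It gave all genes the same variability in both sexes. It therefore does not show how the fit performs for the markers, which varied more among males. Alternatives were other scalings (RLE, upper quartile, library totals), other filters (none, mean of 1 CPM), DESeq2 1.42.0, limma-voom (limma 3.58.1), the 20 most abundant genes left out, and libraries left out.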

Additional observations from a re-analysis of the deposited data

Results flagged for a closer look

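For 68 genes, each sex was searched for a library that stood apart. They were the members, the genes taken from the lists by rule and the nearest profiles. The genes chosen after their values were seen, Plvap among them, were not searched. The measure was the gap from the highest or lowest library to its nearest neighbour as a share of the whole range of 6 (critical value 0.625). Of 136 gene and sex combinations 25 passed, where chance alone gives about 1 in 20, and 14 of the 25 were male 4.

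Among the members only Pecam1 was found. In males the ratio was 0.764, for male 4 at 12.0 CPM against 3.23 to 5.30 CPM in the others. In females it was 0.71, for female 8 at 6.91 CPM against 5.33 to 5.79 CPM.

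Among endothelial genes, male 5 stood apart above the other males, which is the male with the highest Flt4, Fcgr2b, Lyve1 and Tek. The ratio was 0.649 for Ehd3 (23.2 CPM against 10.3 to 14.8), 0.629 for Myct1 (1.59 against 0.369 to 0.823) and 0.657 for Nrp1 (4.49 against 1.59 to 2.58). Robo4 was high in female 12 (0.728) and Notch2 low in female 9 (0.807).

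Male 4 stood apart in immune and matrix genes: Ccl21b (0.89), Cd22 (0.658), Prf1 (0.887), S100a9 (0.942), Dcn (0.652), Pdgfra (0.735), Tgfbi (0.652) and the bile duct gene Epcam (0.712). It did so in acute phase and plasma protein genes as well: Orm1 (0.971), Hp (0.93), Serpina3n (0.802), Fgb (0.784) and, as the lowest male, Ttr (0.64).

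The rest were Tgfbi in female 13 (0.67), Clec4f in female 9 (0.676), Cd14 in female 8 (0.705), Serpina3n in female 12 (0.694) and Hbb in male 2 (0.651).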

How the results depend on the processing

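Flt4, Fcgr2b and Cdh5 stayed higher in females and past the threshold in all 21 alternative fits. With each library left out in turn the log2 fold change ran from 1.32 to 1.62 for Flt4, 1.11 to 1.56 for Fcgr2b, 0.527 to 0.817 for Lyve1, 1.02 to 1.54 for Cdh5, 0.622 to 1.01 for Tek and -0.162 to 0.29 for Pecam1. Lyve1 lost its call in 2 of these fits (without female 8 and without male 2), so that 2 to 3 sinusoidal markers were called, with 2 general markers called throughout. Without male 4 Pecam1 turned to 0.29 (adjusted p = 0.0713). With male 4 and female 12 both left out Pecam1 was 0.291 (adjusted p = 0.0849) and Tek 0.721 (adjusted p = 0.068), so that 1 general marker was called, and with limma-voom Pecam1 was 0.0494 (adjusted p = 0.876). The cause of these changes was not tested. Over all genes, 1810 to 2389 were higher in females and 2019 to 2238 in males with 1 library left out, and the median log2 fold change of all genes stayed between -0.0156 and 0.0152 in every fit. No paired analysis was possible because the female and male animals share no number. Depth limits the lowest genes: Cdh5 had 12 reads in male 1, and genes below the filter were tested with no filter on low counts.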
